A study of Mus musculus with 12 samples.

Results

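The ETS transcription factors described here were *Erg*, *Fli1*, *Ets1*, *Ets2*, *Elk3*, *Elf1*, *Etv1*, *Etv4*, *Etv5* and *Etv6*. These 10 genes were taken by symbol, not by level, from a table of 35727 genes, and each had a row. All 10 passed the filter on low counts that left 15506 genes for testing. Cardiac fibroblasts from pooled hearts of neonatal C57BL/6J mice received retroviruses of *Sox17* and *Erg* together or were controls, were kept in EGM2 medium, and gave bulk RNA at Day 3, Day 7 and 4 weeks. Each of the 6 groups, control and *Sox17*-*Erg* at 3 times, had 2 libraries. The control columns carry the prefix PMX, the name of the retroviral backbone, and the sources used here do not spell out what the control virus carried. The study removed PECAM1-positive cells from the fibroblast isolation used to characterize the induced endothelial cells (iECs). The infected wells were not sorted for the RNA described here as far as the labels state, so each library is a mixture, and a change in the share of a cell type cannot be told apart from a change in RNA per cell. Nothing in the labels says that the 2 libraries of a group came from separate isolations, so the p-values measure the spread between these libraries, which may be technical.

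ETS factors share the ETS domain, a winged helix-turn-helix fold that binds DNA around a GGAA or GGAT core. Nearly all endothelial enhancers and promoters carry such sites, and several family members, *Erg*, *Fli1*, *Ets1* and *Elk3* among them, act in endothelial cells. The PEA3 group (*Etv1*, *Etv4*, *Etv5*) relays FGF and ERK signals, the ternary complex factors bind DNA with SRF, and *Etv6* is a repressor.

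Of the 10 factors, *Erg*, itself one of the retroviral factors, was higher in *Sox17*-*Erg* libraries at every time. *Elk3* was 2.14-fold higher at Day 7 and 2.41-fold higher at 4 weeks, and *Etv4*, *Etv5* and, by a small margin, *Ets2* were higher at 4 weeks. *Fli1* was lower in every *Sox17*-*Erg* library than in the control libraries of the same time, but did not pass the test at any single time. *Ets1* had the highest level per length of the 10 when averaged over each treatment, though not in *Sox17*-*Erg* at 4 weeks, and passed the test nowhere. At Day 3, 2 of 10 were called higher, where 7.19% of all tested genes were. At Day 7 it was 2 of 10 against 9.48%, and at 4 weeks 5 of 10 against 11.9%. Without single libraries these counts were 0 to 2, 1 to 2 and 2 to 4. The Day 3 count fell to 0 without control or *Sox17*-*Erg* replicate 1 of Day 3 and to 1 without control replicate 2, and the Day 7 count to 1 without *Sox17*-*Erg* replicate 1 of Day 7. Without control replicate 1 of Day 7 it stayed at 2, with *Etv4* in place of *Erg*. The 4-week count fell to 2 without control replicate 1 or either *Sox17*-*Erg* library of 4 weeks and to 3 without control replicate 2. Each fit without 1 library leaves 1 library in its group. In each, a smaller share of all tested genes was called higher at every time than with no library left out. The share called lower also fell in most. The lost calls can therefore not be read as particular to the factors, nor can those of the gene lists below. None of the 10 factors was called lower at any time by edgeR's quasi-likelihood test, where 5.13%, 7.93% and 11% of all tested genes were called lower. At an unadjusted p under 0.05, 2 factors were lower at Day 3 (*Fli1* and *Etv1*) and 0 at the later times, and DESeq2 called 1 lower at Day 3 (*Etv1*) and 0 later. The 10 factors had median log2 fold changes of 0.21, 0.12 and 0.18 at the 3 times, beside medians of 0.01, 0.0058 and -0.014 for all tested genes.

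**Figure D1:**
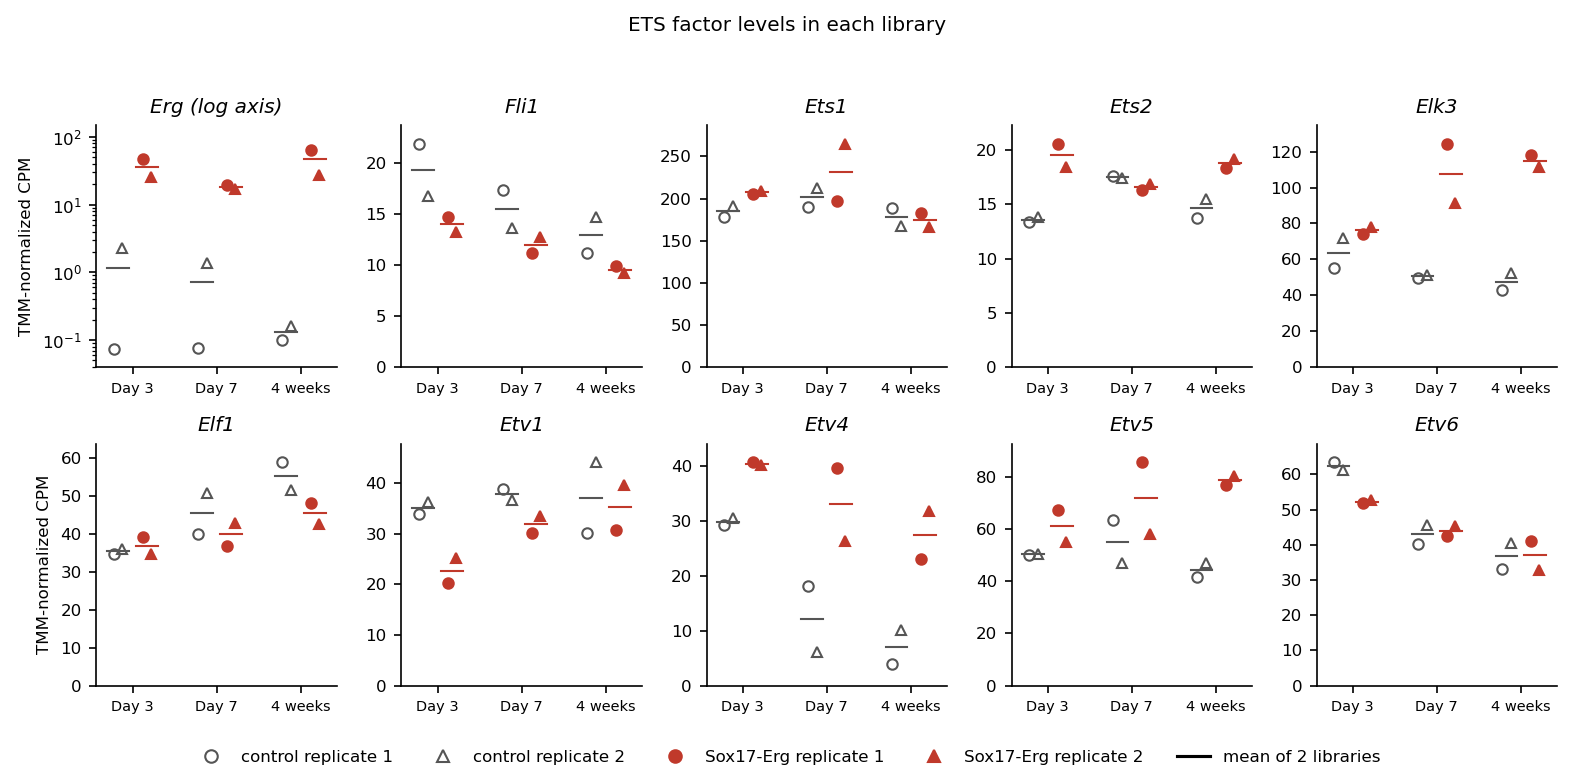
Level of each ETS factor in each library, in TMM-normalized CPM (vertical axis, starting at 0 except for *Erg*, which is on a log axis), by time point. Open symbols are control and filled symbols *Sox17*-*Erg* libraries, circles replicate 1, triangles replicate 2, and lines the mean of 2 libraries. *Erg*, *Elk3* and *Etv4* are higher in both *Sox17*-*Erg* libraries at all 3 times, and *Fli1* is lower.

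*Erg*, an endothelial member of the ERG group, lies on chromosome 16 (chr16:95359169-95586593, minus strand, GRCm38). Levels are given as CPM, the count scaled to the library's TMM-adjusted total. Control levels of *Erg* were 0.0728 and 2.27 CPM at Day 3, 0.0768 and 1.37 CPM at Day 7, and 0.100 and 0.163 CPM at 4 weeks. Behind them stood 2, 49, 2, 34, 4 and 4 counts. The *Sox17*-*Erg* levels were 46.6 and 25.9 CPM at Day 3, 19.4 and 17.1 CPM at Day 7, and 65.2 and 27.7 CPM at 4 weeks. Every *Sox17*-*Erg* library was above every control library. The log2 fold change was 5.03 ± 1.03 (SE) at Day 3 (edgeR adjusted p = 0.0175), 4.67 ± 1.05 at Day 7 (edgeR adjusted p = 0.0166) and 8.49 ± 1.31 at 4 weeks (edgeR adjusted p = 0.00196). The change from Day 3 to 4 weeks in this effect, 3.45 ± 1.77, did not pass (edgeR adjusted p = 0.374). Counts per gene do not separate the retroviral from the genomic copy of *Erg*, so the source of these reads was not tested.

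The 2 control libraries with the most *Erg*, replicate 2 at Day 3 and at Day 7, also held the most of 4 endothelial markers (*Pecam1*, *Cdh5*, *Kdr*, *Tie1*), with 38.6 and 27.9 CPM in sum beside 18.4 and 12.1 CPM in replicate 1. Without both, the *Erg* fold change was 8.84 at Day 3 (edgeR adjusted p = 0.0104) and 7.80 at Day 7 (0.00804) on the log2 scale. The Day 3 call was lost without control replicate 1 of Day 3 (log2 fold change 3.99, edgeR adjusted p = 0.0772) or *Sox17*-*Erg* replicate 1 (4.50, 0.115). The Day 7 call was lost without control replicate 1 of Day 7 (3.71, 0.0696) or *Sox17*-*Erg* replicate 1 (4.58, 0.067). The 4-week call held without any 1 library. As a check of the labels, *Sox17*, the other retroviral factor, had at most 9 counts in a control library and at least 10019 in a *Sox17*-*Erg* library.

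*Fli1*, the nearest relative of *Erg* and also active in endothelial and blood cells (chr9:32422204-32542861), moved the other way. Control levels were 21.9 and 16.8 CPM at Day 3, 17.4 and 13.7 CPM at Day 7, and 11.2 and 14.8 CPM at 4 weeks. In *Sox17*-*Erg* libraries they were 14.7 and 13.3, 11.2 and 12.7, and 9.88 and 9.26 CPM. The groups did not overlap at any of the 3 times. The log2 fold changes were -0.47 ± 0.19, -0.38 ± 0.19 and -0.44 ± 0.20, with edgeR adjusted p of 0.141, 0.216 and 0.140. Without single libraries they ran from -0.68 to -0.26 at Day 3, from -0.54 to -0.22 at Day 7 and from -0.63 to -0.22 at 4 weeks. An exact two-sided permutation test over all 3 times, permuting labels within each time, gave a mean difference of -0.42 on the log2 scale and p = 0.0093, the smallest that its 216 arrangements can give (0.0328 after Benjamini-Hochberg adjustment over all tested genes). Of all tested genes, 13.6% lay lower in this way at all 3 times and 14.6% higher, and among the 10 factors *Fli1* was the 1 lower and *Erg*, *Elk3* and *Etv4* were the 3 higher. Exchanging labels only within same-numbered pairs, *Fli1* was lower in 6 of 6 pairs and p was 0.031, the smallest that 64 arrangements can give (0.0769 after adjustment over all tested genes). *Erg*, *Elk3*, *Etv4* and *Etv5* were higher in 6 of 6 pairs, with the same p and the same adjusted p of 0.0769. Neither *Fli1* nor these factors thus passed the call threshold in the test within pairs. The share of all tested genes with every pair in the same direction was not counted. The counts of pairs can therefore not be read as particular to the factors. At a single time the smallest p of 2 libraries against 2 is 0.33. *Erg* and *Fli1* transcripts shared no 31-base word.

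*Ets1*, an activator in endothelial and lymphoid cells, lies 93.4 kb from *Fli1* (chr9:32636221-32757820). Its control levels ran from 168 to 213 CPM and its *Sox17*-*Erg* levels from 166 to 265 CPM, and only at Day 3 were the groups apart, with 178.5 and 191.7 CPM in control and 205.5 and 208.9 CPM in *Sox17*-*Erg*. Log2 fold changes were 0.16 ± 0.15, 0.20 ± 0.15 and -0.03 ± 0.15 (edgeR adjusted p = 0.508, 0.392 and 0.901).

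*Ets2*, its close relative and a nuclear target of Ras and ERK signaling, lies 115 kb from *Erg* (chr16:95702075-95721051). Control levels were 13.3 and 13.8 CPM at Day 3, 17.6 and 17.4 CPM at Day 7, and 13.8 and 15.5 CPM at 4 weeks. *Sox17*-*Erg* levels were 20.6 and 18.4, 16.3 and 16.9, and 18.3 and 19.2 CPM. The *Sox17*-*Erg* libraries were thus the higher at Day 3 and 4 weeks and the lower at Day 7. In *Ets2* the log2 fold change came to 0.52 ± 0.11 at Day 3 (edgeR adjusted p = 0.0215), -0.08 ± 0.11 at Day 7 (0.662) and 0.36 ± 0.11 at 4 weeks (0.0473). The difference between the Day 7 and Day 3 effects, -0.60 ± 0.16, did not pass (edgeR adjusted p = 0.247). The 4-week call was lost with a replicate block (0.36, edgeR adjusted p = 0.0534), with no filter on low counts (0.25) and without any 1 of the 12 libraries (adjusted p between 0.0573 and 0.258). The Day 3 call was lost with no filter (0.0632), without control replicate 1 or 2 of Day 3 (0.125 and 0.139) and without *Sox17*-*Erg* replicate 1 of Day 3 (0.223).

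*Elk3*, a ternary complex factor that binds DNA with SRF and mostly represses until phosphorylated by ERK, lies on chromosome 10 (chr10:93247414-93311135). Control levels were 55.3 and 71.9 CPM at Day 3, 49.6 and 51.3 CPM at Day 7, and 43.0 and 52.3 CPM at 4 weeks. *Sox17*-*Erg* levels were 74.2 and 78.1 CPM at Day 3, 124 and 91.2 CPM at Day 7, and 118 and 111 CPM at 4 weeks. All 6 *Sox17*-*Erg* libraries were above all 6 control libraries. The log2 fold change was 0.26 ± 0.17 at Day 3 (edgeR adjusted p = 0.354), 1.10 ± 0.18 at Day 7 (0.0036) and 1.27 ± 0.18 at 4 weeks (0.00118), and neither later call was lost without any 1 library. Within *Sox17*-*Erg*, *Elk3* rose by 0.59 ± 0.17 on the log2 scale from Day 3 to 4 weeks (edgeR adjusted p = 0.0307), a call that was lost without either Day 3 or either 4-week *Sox17*-*Erg* library (between 0.0728 and 0.115). The growth of the effect from Day 3 to 4 weeks was 1.01 ± 0.25, with an edgeR adjusted p of 0.0655, against 0.00629 by DESeq2. *Elk3* shares 316 exon bases with *Cdk17*, a gene on the other strand named here for this overlap after its values were seen. *Cdk17* also rose, by 0.99, 1.38 and 1.66 on the log2 scale at the 3 times (edgeR adjusted p = 0.00117, 0.000121 and 2.25e-05). The kit keeps strand, but the sources used here do not state the strand setting of the quantification, and the part of the shared bases in the *Elk3* counts was not tested.

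*Etv4*, a PEA3 factor induced by FGF signaling (chr11:101769742-101785371), fell with time in control. Control levels were 29.2 and 30.5 CPM at Day 3, 18.2 and 6.07 CPM at Day 7, and 3.93 and 10.1 CPM at 4 weeks. *Sox17*-*Erg* levels were 40.7 and 40.2, 39.8 and 26.4, and 23.1 and 31.9 CPM. The groups did not overlap at any time. The log2 fold change was 0.44 ± 0.50 at Day 3 (edgeR adjusted p = 0.600), 1.45 ± 0.51 at Day 7 (0.0833) and 1.99 ± 0.53 at 4 weeks (0.0247). With a replicate block within each time the Day 7 value was 1.59 (edgeR adjusted p = 0.00671), and DESeq2 also called it (0.0208). Without single libraries the Day 7 value ran from 0.87 (without control replicate 2 of Day 7) to 2.42 (without control replicate 1, edgeR adjusted p = 0.0251), and the 4-week value from 1.44 to 2.81. The 4-week call was lost without control replicate 1 (1.44, 0.142) or either *Sox17*-*Erg* library of 4 weeks (0.0634 and 0.105). Between Day 3 and 4 weeks *Etv4* fell by 2.11 ± 0.53 on the log2 scale in control (edgeR adjusted p = 0.0187), which was lost without either Day 3 control library (0.0681 and 0.0703) or control replicate 1 of 4 weeks (0.114). In *Sox17*-*Erg* the change was -0.56 ± 0.50 (edgeR adjusted p = 0.431), and the difference between these changes, 1.55 ± 0.72, did not pass (0.320).

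*Etv5*, which acts with *Etv4* downstream of FGF receptors (chr16:22381309-22439719), was at 50.2 and 50.5 CPM at Day 3, 63.4 and 46.8 CPM at Day 7, and 41.7 and 47.0 CPM at 4 weeks in control. *Sox17*-*Erg* libraries held 67.2 and 54.9, 85.5 and 57.9, and 76.8 and 80.3 CPM. The groups overlapped at Day 7 and at no other time. The log2 fold change was 0.28 at Day 3 (edgeR adjusted p = 0.394), 0.38 at Day 7 (0.230) and 0.83 ± 0.20 at 4 weeks (0.0178). Leaving out any of the 4 libraries of 4 weeks ended that call (between 0.0513 and 0.113), and a block within each time brought the Day 7 value to a call (0.37, edgeR adjusted p = 0.0399). Of the 31-base words of *Etv5*, 30.3% also occur in the processed pseudogene *Gm4798*, which was listed at 0 counts in all 12 libraries, so its counts are uncertain to that extent.

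*Etv1*, the remaining PEA3 factor (chr12:38779380-38870484), was at 33.8 and 36.4 CPM in control and 20.2 and 25.2 CPM in *Sox17*-*Erg* libraries at Day 3. At Day 7 it was at 38.9 and 36.6 CPM in control and 30.1 and 33.6 CPM in *Sox17*-*Erg*, and at 4 weeks at 30.1 and 44.1 against 30.8 and 39.7 CPM. The groups were thus apart at Day 3 and Day 7 and overlapped at 4 weeks. At Day 3 the log2 fold change was -0.63 ± 0.20 and missed the threshold (edgeR adjusted p = 0.0704). It passed with the replicate block (-0.64, edgeR adjusted p = 0.0298) and by DESeq2 (-0.65, 0.0307). At Day 7 and 4 weeks the values were -0.25 and -0.07 (edgeR adjusted p = 0.423 and 0.836). *Etv1* rose by 0.63 ± 0.20 from Day 3 to 4 weeks within *Sox17*-*Erg* (0.0392), a call that was lost without each of 5 libraries taken singly (between 0.0504 and 0.199). It shares 9.97% of its 31-base words with other genes. Of these, *Gm5454*, a processed pseudogene at 0 counts throughout, shares more than any other gene.

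*Elf1*, an activator of endothelial and blood genes (chr14:79481194-79582494), ran from 34.8 to 58.9 CPM in control and from 34.7 to 48.3 CPM in *Sox17*-*Erg*, with the groups apart only at 4 weeks (58.9 and 51.6 against 48.3 and 42.7 CPM). Its log2 fold changes of 0.06, -0.19 and -0.28 did not pass (edgeR adjusted p = 0.828, 0.414 and 0.203). In control it rose by 0.64 ± 0.15 from Day 3 to 4 weeks (edgeR adjusted p = 0.0132), a call lost without either Day 3 control library (0.0838 and 0.0678) or control replicate 1 of 4 weeks (0.087). *Etv6*, a repressor needed for blood and vessel development (chr6:134035700-134270158), fell with time in both groups. It went from 63.5 and 61.2 CPM at Day 3 to 33.2 and 40.6 CPM at 4 weeks in control, and from 51.9 and 52.7 CPM to 41.1 and 32.9 CPM in *Sox17*-*Erg*. The changes were -0.76 ± 0.14 (edgeR adjusted p = 0.00529) and -0.50 ± 0.14 (0.0256) on the log2 scale, and the former held without any 1 library, whereas the latter was lost without each of 5 (between 0.0568 and 0.136). Between groups *Etv6* differed by -0.25, 0.03 and 0.01 (0.255, 0.905 and 0.983).

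**Figure D2:**
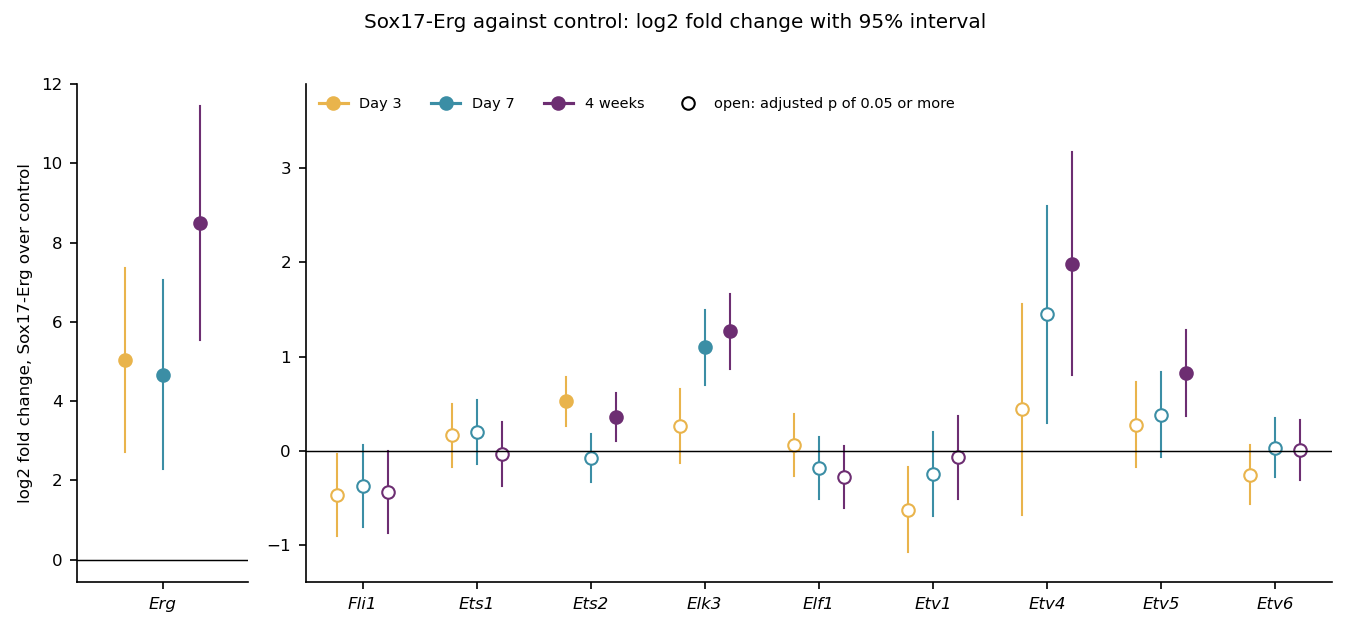
Log2 fold change of *Sox17*-*Erg* over control (vertical axis, *Erg* on a scale of its own) of each ETS factor at Day 3, Day 7 and 4 weeks, with 95% confidence intervals of the edgeR fit. Filled points have an adjusted p under 0.05. *Erg* stands apart at 5.03, 4.67 and 8.49, and the other called values lie between 0.36 and 1.99.

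Over time, 1 factor was called higher (*Elf1*) and 2 lower (*Etv4*, *Etv6*) at 4 weeks than at Day 3 in control, where 13.9% and 12.6% of all tested genes were. Within *Sox17*-*Erg* 2 were called higher (*Elk3*, *Etv1*) and 1 lower (*Etv6*), beside 15.1% and 15.6%. For no factor did the *Sox17*-*Erg* effect differ between 4 weeks and Day 3 by edgeR, where 3.21% of all tested genes were called in either direction. At an unadjusted p under 0.05 it differed for 1, *Elk3*, which DESeq2 called.

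Levels of different genes were compared only per kilobase of merged exon, averaged over the 6 libraries of a treatment. *Ets1* was the highest of the 10 in both averages, at 22.2 ± 1.78 CPM per kilobase (SD, n = 6) in control and 24.1 ± 3.99 in *Sox17*-*Erg*. In control *Etv5* (12.2 ± 1.78) and *Elk3* (11.9 ± 2.14) came next, closer to each other than their spread. *Etv6* (7.92 ± 2.05), *Elf1* (6.73 ± 1.45), *Etv4* (5.27 ± 3.73) and *Fli1* (4.58 ± 1.05) followed, each within the spread of its neighbor. *Etv1* (2.76 ± 0.357) and *Ets2* (2.64 ± 0.332) were also not separated, and *Erg* was lowest at 0.195 ± 0.268. In *Sox17*-*Erg* the order was *Ets1*, *Elk3* (21.9 ± 4.69), *Etv5* (17.2 ± 3.04), *Etv4* (10.9 ± 2.49), *Erg* (9.70 ± 5.38), *Etv6* (7.42 ± 1.23), *Elf1* (6.05 ± 0.722), *Fli1* (3.40 ± 0.603), *Ets2* (3.17 ± 0.270) and *Etv1* (2.25 ± 0.506). The first 2 lay closer to each other than their spread, as did *Etv4* with *Erg*, *Erg* with *Etv6* and *Fli1* with *Ets2*. By time, *Ets1* was first in every group except *Sox17*-*Erg* at 4 weeks, where *Elk3* stood at 25.2 ± 1.08 CPM per kilobase (SD, n = 2) and *Ets1* at 20.6 ± 1.39. That order depended on the length used. With the longest transcript *Ets1* was first there too (34.3 ± 2.32 against 27.2 ± 1.16), and with the median coding transcript *Elk3* (85.8 ± 3.66) and *Ets1* (85.4 ± 5.77) lay within their spread. In control, *Etv4* went from place 5 at Day 3 (9.63 CPM per kilobase) to place 9 at 4 weeks (2.27), and *Elf1* from place 7 (5.27) to place 4 (8.20). As a share of the summed level per kilobase of the 10, *Ets1* went from 29.1% in control to 22.7%, *Elk3* from 15.5% to 20.6% and *Erg* from 0.255% to 9.16%. *Ets1* stayed at the top of both averages with the longest or the median coding transcript as length, whereas the places of other factors moved. With the median coding transcript *Etv1* took place 3 in control instead of 8.

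**Figure D3:**
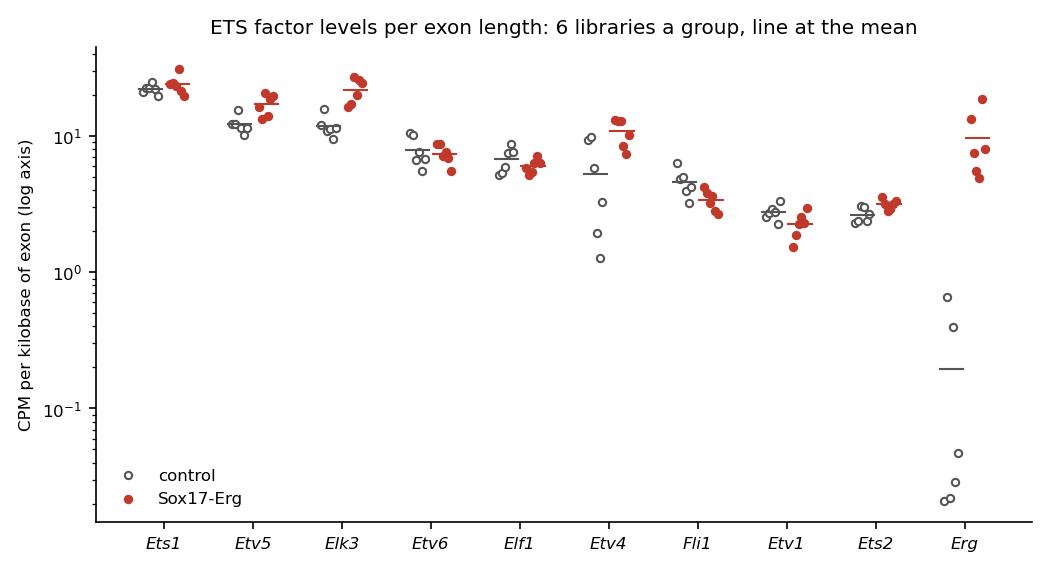
Level of each ETS factor in CPM per kilobase of merged exon (vertical log axis), with 1 point for each of 6 libraries a treatment, open for control and filled for *Sox17*-*Erg*, and a line at the mean. *Ets1* is at the top in control, *Elk3* lies near it in *Sox17*-*Erg*, and *Erg* has the widest gap between treatments.

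Summed over the 10 factors, levels were 425.1 to 511.1 CPM in the control libraries and 552.2 to 614.4 CPM in the *Sox17*-*Erg* libraries, which did not overlap. This sum includes *Erg*, which was delivered by retrovirus. Without it the sums were 425 to 508.9 and 526.4 to 592 CPM, also with no overlap, and the means 469.1 ± 29.96 and 553.2 ± 28.2 CPM (SD, n = 6). With it the means were 469.8 ± 30.6 and 586.9 ± 26.3 CPM (SD, n = 6). At 4 weeks the sum was 434.5 in control and 587.6 CPM in *Sox17*-*Erg*.

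Promoter sequences from RefSeq (GRCm38.p6) were available for 7 of the 10 factors, in 12 windows of the 250 bases before a start. Shown are windows free of annotated exons for 3 factors called higher, to let the letters be read beside the levels above. Capitals mark the ETS core searched for, CGGAAG or AGGAAG on either strand (CTTCCG or CTTCCT), and the SOX core ACAAT or its reverse complement ATTGT. Each is written from 5′ to 3′ on the minus strand. The *Elk3* window is chr10:93311160-93311409, the *Etv5* window is chr16:22438369-22438618, and the *Erg* window, chr16:95459349-95459598, lies before an internal start of that gene. It is the 1 of 3 *Erg* windows that holds a motif.
Elk3: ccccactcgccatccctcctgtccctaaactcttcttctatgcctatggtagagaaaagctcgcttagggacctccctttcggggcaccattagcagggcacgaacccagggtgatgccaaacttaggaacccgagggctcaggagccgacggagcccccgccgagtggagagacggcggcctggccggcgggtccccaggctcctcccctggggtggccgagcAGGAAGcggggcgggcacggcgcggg
Etv5: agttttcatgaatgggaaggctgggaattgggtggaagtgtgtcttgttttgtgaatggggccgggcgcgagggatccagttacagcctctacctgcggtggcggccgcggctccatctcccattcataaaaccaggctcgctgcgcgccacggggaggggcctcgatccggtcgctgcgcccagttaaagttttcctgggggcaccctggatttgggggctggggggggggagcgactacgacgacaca
Erg: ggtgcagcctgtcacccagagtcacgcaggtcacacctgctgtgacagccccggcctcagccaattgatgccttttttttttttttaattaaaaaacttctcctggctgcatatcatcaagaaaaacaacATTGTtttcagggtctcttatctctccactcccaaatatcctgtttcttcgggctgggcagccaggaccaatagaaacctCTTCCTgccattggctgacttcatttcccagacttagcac
The *Elk3* window holds 1 ETS core, the *Etv5* window neither motif, and the *Erg* window 1 of each. The other *Erg* windows, chr16:95530366-95530615 and chr16:95586594-95586843 at the 5′ end of the gene, hold neither. Among all 32851 windows of this length 39.2% hold an ETS core and 27.7% a SOX core, and 9.43% hold both. Among the 12 windows of the factors 3 hold an ETS core and 3 a SOX core. The matches not shown lie in windows of *Etv1*, which the main fit called neither higher nor lower at any time. Its window chr12:38779832-38780081 holds 1 of each motif. Its other window holds SOX cores, none of them in its exon-free bases. A match describes these letters and is not a measured binding site.

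Of 17 other ETS family genes, 11 were tested and only *Erf*, a repressor regulated by ERK, was called against control at any of the 3 times. *Erf* was at 59.1 and 56.5, 47.7 and 40.95, and 41.4 and 38.5 CPM in control at the 3 times. In *Sox17*-*Erg* it was at 61.2 and 76.4, 69.6 and 60.0, and 64.4 and 60.4 CPM, above control in every library of the same time. Its log2 fold change was 0.25 at Day 3 (edgeR adjusted p = 0.249), 0.55 ± 0.14 at Day 7 (0.0252) and 0.64 ± 0.14 at 4 weeks (0.00921). The Day 7 call was lost without control replicate 2 (0.149) or *Sox17*-*Erg* replicate 1 (0.184) of Day 7. The 4-week call was lost without control replicate 2 (0.0565) or *Sox17*-*Erg* replicate 1 (0.0655) of 4 weeks. At Day 3, where edgeR called 0 of these 11, 2 were at an unadjusted p under 0.05 (*Elf2* and *Gabpa*) and DESeq2 called 1. The 1 of 11 called higher at Day 7 and at 4 weeks stands beside 9.48% and 11.9% of all tested genes. The median log2 fold changes of the 11 were -0.094, 0.092 and 0.25. *Etv2*, which starts the endothelial program in the embryo, had 0 counts in all 12 libraries, which allows up to 0.141 CPM (3 counts) in the shallowest group. *Elf3*, *Fev* and *Spdef*, mainly epithelial or neural genes, had at most 3 counts in any library.

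**Figure D4:**
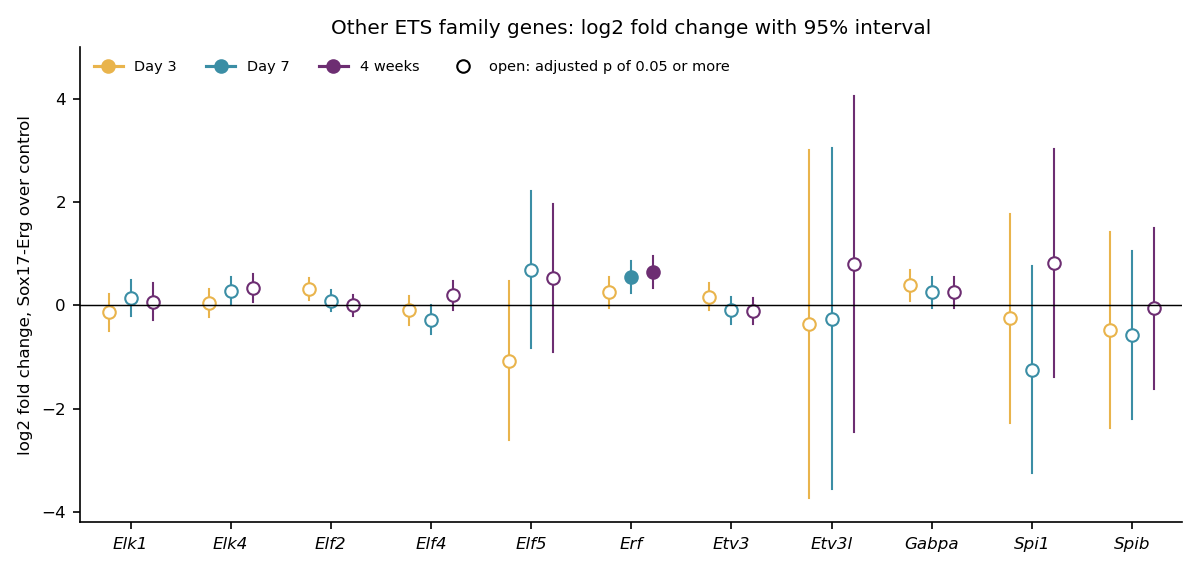
Log2 fold change of *Sox17*-*Erg* over control (vertical axis) of the 11 other tested ETS genes at Day 3, Day 7 and 4 weeks, with 95% confidence intervals. Filled points have an edgeR adjusted p under 0.05. *Erf* at Day 7 (0.55) and 4 weeks (0.64) is filled, and the low-count genes *Etv3l*, *Spi1*, *Spib* and *Elf5* have the widest intervals.

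Among 10 genes of ETS partners, which are factors that bind DNA beside ETS proteins, SRF with its coactivators, and the GABP beta subunits, 3 were called higher and 1 lower at Day 3, 5 higher at Day 7 and 5 higher at 4 weeks, with median log2 fold changes of 0.39, 0.93 and 0.99. Of all tested genes, 7.19%, 9.48% and 11.9% were called higher at the 3 times and 5.13%, 7.93% and 11% lower. With the replicate block within each time 12.7%, 13.8% and 15.5% of all tested genes were called higher. Without single libraries the partners called higher numbered 0 to 3, 3 to 5 and 3 to 5, and with the replicate block within each time 5, 7 and 6. *Runx1*, which binds DNA together with *Ets1*, was at 8.66 and 8.23 CPM in control and 12.1 and 14.9 CPM in *Sox17*-*Erg* at Day 3. At 4 weeks it was at 4.51 and 4.15 CPM in control and 88.8 and 50.9 CPM in *Sox17*-*Erg*. Its log2 fold change was 0.68 ± 0.26 at Day 3 (edgeR adjusted p = 0.122), 2.65 ± 0.28 at Day 7 (0.000452) and 4.01 ± 0.29 at 4 weeks (3.33e-05). With the block within each time *Runx1* passed at Day 3 as well (0.667, edgeR adjusted p = 0.04355). *Jun*, a subunit of the AP-1 dimer, rose by 1.69, 2.22 and 2.79 on the log2 scale (edgeR adjusted p = 0.00967, 0.00146 and 0.00028). *Mrtfb*, a coactivator of SRF, rose by 0.68, 1.22 and 1.44 (0.012, 0.000421 and 9.29e-05), and *Foxc2*, which acts with ETS factors at endothelial enhancers, by 1.08, 1.26 and 1.40 (0.0429, 0.0195 and 0.00918). The Day 3 calls of *Jun*, *Mrtfb* and *Foxc2* were lost without 2, 3 and 9 libraries taken singly, in each case without *Sox17*-*Erg* replicate 1 (0.0926, 0.123 and 0.204) and control replicate 2 of Day 3, and *Foxc2* at 4 weeks was lost without control replicate 1 (0.0751) or *Sox17*-*Erg* replicate 1 (0.0539) of 4 weeks. At Day 7 *Foxc2* stood at 0.82 without control replicate 2 of Day 7, and its call was lost without *Sox17*-*Erg* replicate 1 of Day 7 (0.136), with that time fitted alone (0.131), and without control replicate 2 of Day 3 and Day 7 (0.0762). Of 4 regulators of ETS protein stability, 2 were called higher at Day 3, 2 at Day 7 and 1 at 4 weeks. *Spop*, a ubiquitin ligase adaptor for ERG, was at 96.3 to 136 CPM in control and 188 to 253 CPM in *Sox17*-*Erg* libraries. It rose by 0.90, 1.0 and 0.92 on the log2 scale (edgeR adjusted p = 0.0017, 0.000459 and 0.000401). *Usp9x*, a deubiquitinase for ERG, rose by 0.59 and 0.67 at Day 3 and Day 7 (0.034 and 0.0145), and stood at 0.33 at 4 weeks (0.136). Its Day 3 call was lost without each of 8 libraries taken singly, with a value of 0.36 without *Sox17*-*Erg* replicate 1 of Day 3 (0.305), and its Day 7 call without either control library or *Sox17*-*Erg* replicate 1 of Day 7 (between 0.0504 and 0.112). Both were also lost with that time fitted alone (0.0648 and 0.0901).

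Of 18 endothelial genes known to be bound by ETS factors, 17 were tested. At Day 3, 5 were higher and 0 lower, at Day 7, 8 were higher and 0 lower, and at 4 weeks 10 were higher and 1 lower. The median log2 fold changes were 0.68, 0.97 and 3.01. With genes at 3 counts or fewer in each control library set at their lower bound, the 4-week median was 2.74. Beside these stand 7.19%, 9.48% and 11.9% of all tested genes called higher and 5.13%, 7.93% and 11% called lower. Of the genes named below, a block within each time also called *Dll4* higher at Day 3 (3.28, edgeR adjusted p = 0.0294) and *Eng* lower at Day 7 (-0.69, 0.0416). Without single libraries 3 to 6, 6 to 8 and 7 to 11 were higher, with 3 at Day 3 without control replicate 2 or *Sox17*-*Erg* replicate 1 of that day. *Dll4*, an arterial Notch ligand, had 0 counts in both control libraries at 4 weeks and was at least 904-fold higher in *Sox17*-*Erg* against a floor of 3 counts per library. *Cdh5*, the junction protein VE-cadherin, rose by 4.58, 6.29 and 10.2 on the log2 scale (edgeR adjusted p = 0.0428, 0.0128 and 0.00269). Its Day 3 call was lost without each of 9 libraries taken singly, among them control replicate 1 (3.64, 0.15) and replicate 2 (7.57, 0.0562) of Day 3. Without control replicate 2 of Day 7 the Day 7 value was 10.4. With Day 7 fitted alone the Day 7 call of *Cdh5* was lost (6.28, edgeR adjusted p = 0.0599). *Icam2*, an adhesion protein of endothelial cells, rose by 2.70, 3.98 and 5.91 (0.00625, 0.000593 and 7.85e-05), and its Day 3 call was lost without control replicate 2 of Day 3 (0.0617). *Tie1*, an endothelial receptor kinase, rose by 4.73 at 4 weeks (0.0207), which was lost without either control library of 4 weeks (0.109 and 0.0997) or *Sox17*-*Erg* replicate 1 (0.0787). The 1 gene called lower, *Eng*, a TGF-beta co-receptor named after its values were seen, differed by -1.15 at 4 weeks (edgeR adjusted p = 0.0496), a call lost without each of 10 libraries taken singly (between 0.051 and 0.236), with the size factors of DESeq2 (0.0507), and without control replicate 2 of Day 3 and Day 7 (0.0809).

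Of 12 genes that respond to ERK signaling, which drives the PEA3 factors, 0 were higher and 1 lower at Day 3, 1 higher and 2 lower at Day 7, and 1 higher and 4 lower at 4 weeks, with medians of -0.045, -0.029 and 0.18. Of all tested genes 7.19%, 9.48% and 11.9% were higher and 5.13%, 7.93% and 11% lower, and without single libraries the lower count ran from 0 to 2, 1 to 2 and 1 to 4. With the replicate block 2 were higher and 3 lower at Day 7, against 10.1% and 9.42% of all tested genes. With the block within each time 2 were higher and 3 lower at Day 3, against 12.7% and 10.4%, and 3 and 3 at Day 7, against 13.8% and 13.3%. Several that fell are feedback inhibitors of the pathway. *Spry2*, a Sprouty inhibitor of receptor signaling, was at 79.9 to 129 CPM in control and 39.9 to 51.1 CPM in *Sox17*-*Erg* libraries, with no overlap. It fell by 0.75, 1.30 and 1.50 on the log2 scale (edgeR adjusted p = 0.0217, 0.00119 and 0.000331), and its Day 3 call was lost without any 1 of the 4 Day 3 libraries (between 0.081 and 0.139). *Spry1* fell by 1.20 at 4 weeks (edgeR adjusted p = 0.00955), a call lost without *Sox17*-*Erg* replicate 1 of 4 weeks (log2 fold change -1.05). With the replicate block it passed at Day 7 as well (-0.54, edgeR adjusted p = 0.0461). With the block within each time it also passed at Day 3 (-0.54, edgeR adjusted p = 0.0392). *Spry4* fell by 0.98 at Day 7 and 0.96 at 4 weeks (0.0459 and 0.0401), each lost without 9 libraries taken singly. Without control replicate 1 of Day 7 the Day 7 value was -0.62 (0.209), and without control replicate 2 of 4 weeks the 4-week value was -0.47 (0.279). At Day 3 *Spry4* stood at -0.86 (edgeR adjusted p = 0.0835), and passed by DESeq2 (0.0248), with that time fitted alone (0.0278) and with the block within each time (0.0373). Its Day 7 and 4-week calls were both lost with the time fitted alone (edgeR adjusted p = 0.0842 and 0.0775). *Spred3*, of the related Spred inhibitors, rose by 0.69 at Day 7 and 1.13 at 4 weeks (edgeR adjusted p = 0.0158 and 0.00108). Its Day 7 call was lost without either Day 7 control library (log2 fold changes 0.71 and 0.64) or *Sox17*-*Erg* replicate 1 of Day 7 (0.54). It was also lost with that time fitted alone (0.67, edgeR adjusted p = 0.0966). *Etv4* and *Etv5*, themselves ERK targets, were thus higher at 4 weeks in the same libraries in which *Spry1*, *Spry2* and *Spry4* were lower. *Phlda1*, outside the naming rule, was the remaining gene called lower. The 7 not called at 4 weeks include *Dusp6*, also outside the rule, with means of 110.5 CPM in control and 138.8 CPM in *Sox17*-*Erg*. A link between these changes was not tested.

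**Figure D5:**
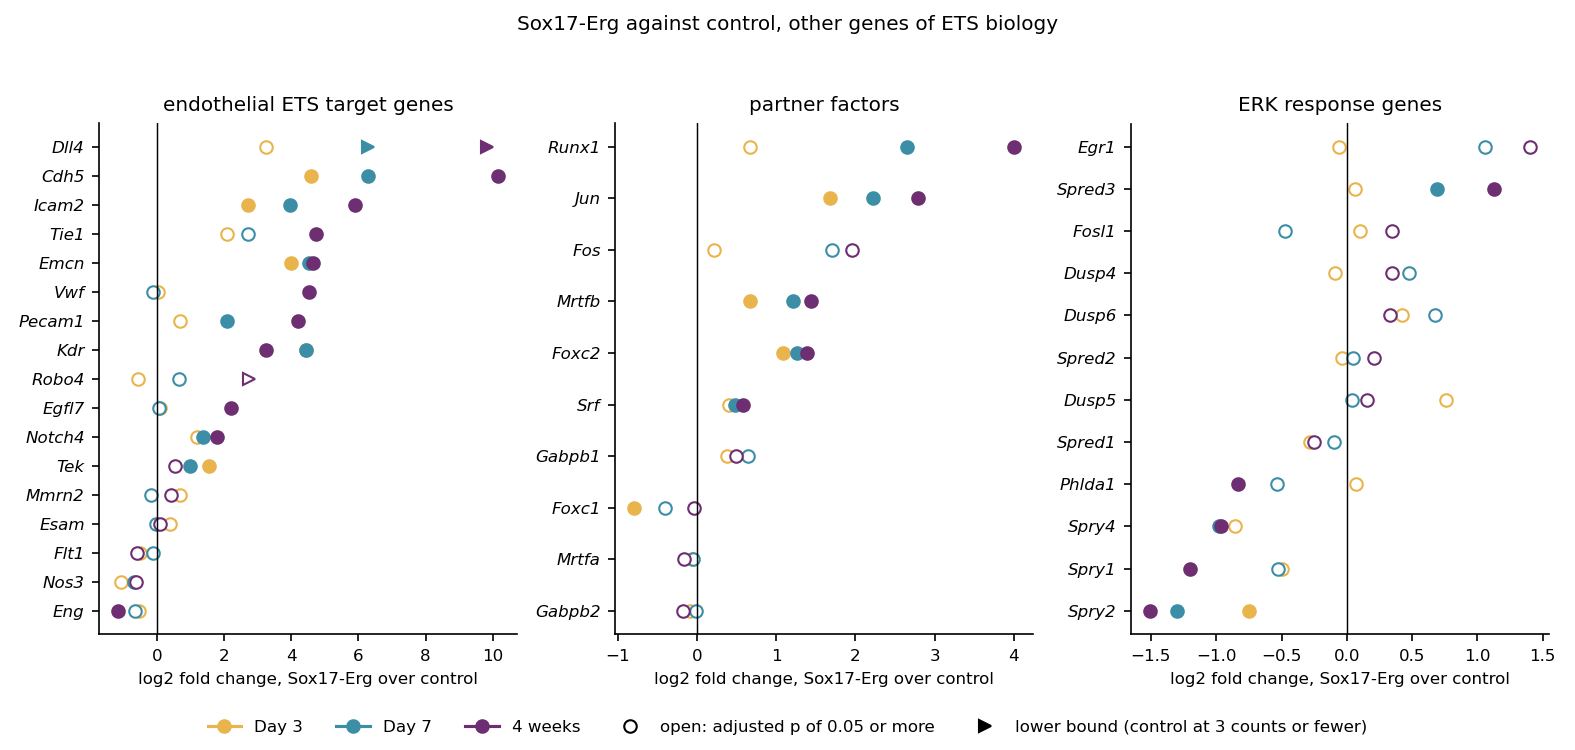
Log2 fold change of *Sox17*-*Erg* over control (horizontal axis, a scale of its own in each panel) at 3 times for endothelial ETS target genes, genes of partners and ERK response genes. Filled symbols have an edgeR adjusted p under 0.05, and triangles are lower bounds for genes with 3 counts or fewer in control libraries. *Dll4* and *Cdh5* reach the highest values at 4 weeks, *Runx1* is higher at each later time, and *Spry2* is lower at all 3 times.

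Other cell types moved beside these values. Of 6 mesothelial markers, 1, 3 and 6 were called lower in *Sox17*-*Erg* at the 3 times, where 5.13%, 7.93% and 11% of all tested genes were, and their sums were 279 to 1380 CPM in control against 131 to 319 CPM. Against 6.64%, 9.42% and 12.2% of all tested genes, the counts with the replicate block were 5, 6 and 6. Without single libraries they were 0 to 2, 0 to 4 and 1 to 6, with 0 at Day 3 without control replicate 1 or either *Sox17*-*Erg* library of Day 3. At Day 7 the count was 0 without control or *Sox17*-*Erg* replicate 1 of Day 7 and 1 without *Sox17*-*Erg* replicate 2, and at 4 weeks it was 1 without *Sox17*-*Erg* replicate 2 and 3 without control replicate 1 of 4 weeks. Of 6 markers of cycling cells, 5 were called higher at 4 weeks, where 11.9% of all tested genes were, and 0 at Day 3 and Day 7 in the edgeR fit of all 12 libraries (3 and 0 at an unadjusted p under 0.05), with sums of 30.6 to 418 CPM against 78.3 to 1094 CPM. The 5 calls at 4 weeks became 0 without each of 7 libraries taken singly, namely the 4 Day 3 libraries, both controls of 4 weeks and *Sox17*-*Erg* replicate 2 of 4 weeks. Without the last, *Mki67* went from 2.25 to 1.28 (edgeR adjusted p = 0.235) and *Top2a* from 2.15 to 1.24 (0.277). At Day 3 edgeR called all 6 higher with that time fitted alone or with no filter on low counts, against 8.80% and 5.91% of all genes tested in those fits, and DESeq2 called 1. A block within each time called 4 at Day 3 and 2 at Day 7, against 12.7% and 13.8%. Macrophage markers (10 genes) were at 915 and 1316 CPM in sum in control at Day 7 and at 282 and 455 CPM in *Sox17*-*Erg*, with all 10 fold changes below 0 (median -1.4). None passed in the edgeR fit of all 12 libraries at any time, also with 0 at an unadjusted p under 0.05, nor by DESeq2. Fits without 1 library gave calls lower at Day 7 or higher at 4 weeks in some cases. A replicate block within each time called all 10 lower at Day 7, against 13.3% of all tested genes. At Day 3 their sums were 295 to 454 CPM in control and 307 to 333 CPM in *Sox17*-*Erg*, and at 4 weeks 47.8 and 432 against 69.7 and 347 CPM. Fibroblast markers (8 genes) were present throughout, with sums of 12480 to 35780 and 10090 to 39100 CPM. Of all tested genes, 5.13% were called lower at Day 3, 9.48% higher and 7.93% lower at Day 7, and 11.9% and 11% at 4 weeks. With the replicate block 6.64% and 9.42% were lower at Day 3 and Day 7. Of the 8 fibroblast markers, 1 was called lower at Day 3 (*Tcf21*, outside the naming rule). At Day 7, 1 was higher (*Postn*) and 3 lower (*Pdgfra*, *Dcn*, *Lum*). At 4 weeks 1 was higher (*Postn*, 4.74 on the log2 scale) and 4 lower (*Tcf21*, *Pdgfra*, *Dcn* and *Lum*, the lowest at -3.39). With the replicate block 4 were lower at Day 3 and 4 at Day 7, and without single libraries 0 to 4, 1 to 4 and 1 to 4. The 4 endothelial markers summed to 7.89 to 38.6 CPM in control and 225 to 661 CPM in *Sox17*-*Erg*. The part of these cell types in the levels of the ETS factors was not tested.

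Across the 12 libraries, the genes whose log2 CPM was most like *Erg* were *Cdh5* (Pearson r = 0.983), *Rgl1* (0.975) and *Calcrl* (0.970). For *Elk3* they were *Lypla2* (0.980), *Olfr78* (0.972) and *Notch3* (0.966), and for *Ets2* *Mettl14* (0.853), *Vmn1r18* (0.839) and *Zfp626* (0.838). These are descriptions over 12 libraries that share treatment, time and depth.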

How the data were processed

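Bulk RNAseq was measured in 12 libraries, 2 in each of 6 groups set by treatment and time in the sample labels. Per the labels, stranded mRNA libraries were sequenced on a NovaSeq with paired-end reads, and the submitters' processing notes name bcl2fastq 2.20.0, Salmon, DESeq2 and mm10. Per the study's methods, high GC content was trimmed with BBDuk. The authors deposited estimated counts (expected counts from Salmon) per Ensembl gene, rounded to whole numbers and with no scaling to library size. The versions of Salmon and of its annotation are not given in the sources used here. Symbols, positions, exon lengths, overlaps and shared 31-base words were read from GENCODE M21 (GRCm38), where 35493 of 35727 genes were found.

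Library totals ran from 19011635 to 41240449 counts. The main test was the quasi-likelihood test of edgeR 4.0.16 (R 4.3.3) with TMM factors and filterByExpr (minimum count 10, minimum total 15, 15506 genes kept). It was fitted over all 12 libraries with a mean for each group, which left 6 residual degrees of freedom. The call threshold was an adjusted p (Benjamini-Hochberg) of 0.05 over all tested genes. Adjusted p-values in the text are from this test where no other tool is named. CPM are TMM-normalized. Floors of 3 counts and confidence intervals of 95% cover the libraries only.

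Replicate numbers came from the sample labels. Across genes, control and *Sox17*-*Erg* libraries with the same number deviated from their group means together, with correlations of 0.186 (Day 3), 0.301 (Day 7) and 0.171 (4 weeks). The numbers were thus taken to pair the samples of a time in the blocks and the permutation within pairs. The main test and the permutation within times did not use pairs. Between Day 3 and Day 7 the correlations were 0.174 in control and 0.219 in *Sox17*-*Erg*, and with 4 weeks they ran from -0.11 to -0.049. The block over all times therefore rests on a link to 4 weeks that these values do not show. Alternatives were DESeq2 1.42.0 (its Wald test and its size factors), other filters and thresholds, single time points, a replicate block, other gene lengths and leaving out each library. Leaving out control replicate 2 of Day 3 and Day 7 together, the permutation within pairs and the counts of each gene list in every setting were chosen later, with the data in view. The fit was tested on simulated data with known changes.

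The 10 factors and the gene lists were chosen with earlier results of these data known. The text names all 10, other ETS genes that were called or had at most 3 counts everywhere, up to 4 called genes of each list by size of change at 4 weeks, and the 3 genes most like a factor called at 2 or more times. Genes outside this rule are said to be so. Cdk17, Gm4798 and Gm5454 are named for shared sequence, Sox17 as a check, and Elf2 and Gabpa for an unadjusted p. Protein sequences were not used here.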

Additional observations from a re-analysis of the deposited data

Results flagged for a closer look

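For 5 named genes, the effect of *Sox17*-*Erg* differed between 4 weeks and Day 3 in edgeR's test of the difference itself. *Runx1* rose by 3.33 more on the log2 scale at 4 weeks than at Day 3 (edgeR adjusted p = 0.00409), and this held without any 1 library. For *Icam2* the difference was 3.20 (edgeR adjusted p = 0.0315), which was lost without 7 of the 12 libraries taken 1 at a time (adjusted p between 0.0592 and 0.126). For *Spred3* it was 1.06 (edgeR adjusted p = 0.035), also lost without 7 of the libraries (between 0.0576 and 0.133). For *Pecam1*, an endothelial adhesion protein, it was 3.54 (edgeR adjusted p = 0.0109), lost without *Sox17*-*Erg* replicate 2 of Day 3 (0.0506) and without control replicate 2 of Day 3 and Day 7 (0.054). For *Postn*, a fibroblast marker, it was 4.40 (edgeR adjusted p = 0.00127), a call kept in every setting that gives it. *Postn* fell over time in both groups, from means of 5556 to 53.9 CPM in control and from 7064 to 1444 CPM in *Sox17*-*Erg*. The other fibroblast markers called at 4 weeks (*Tcf21*, *Pdgfra*, *Dcn* and *Lum*) were lower in *Sox17*-*Erg*. With the replicate block *Mrtfb* (0.77, edgeR adjusted p from 0.0501 to 0.0432) and *Jun* (1.07, from 0.197 to 0.016) passed as well. None of the 10 ETS factors passed this test by edgeR. *Elk3* came nearest, at 1.01 with an edgeR adjusted p of 0.0655.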

How the results depend on the processing

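No value of a factor changed sign as a call in any setting. Of 240 values under other settings 222 kept their side of the threshold, 8 lost a call and 10 gained one. Of 360 values without 1 library, 331 kept it, 26 lost a call and 3 gained one. The count of factors higher at Day 3 (2) became 0 at an adjusted p under 0.01, and 1 with a log2 fold change of at least 1, with no filter on low counts, or without control replicate 2 of Day 3 and Day 7. The count lower at Day 3 (0) became 1 by DESeq2, with no filter, with 1 time point fitted alone, and with the replicate block, also within each time point. The count higher at Day 7 (2) became 1 at an adjusted p under 0.01 or with 1 time point alone, and 3 by DESeq2 or with no filter. With the block within each time point it became 4, against 13.8% of all tested genes called higher. The count higher at 4 weeks (5) became 4 with no filter, with 1 time point alone, with the replicate block or without control replicate 2 of Day 3 and Day 7, 2 at an adjusted p under 0.01 and 3 with a log2 fold change of at least 1.

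Of the other ETS genes, 1 was called at Day 3 by DESeq2 and with the block within each time point, in place of 0. The 1 called at Day 7 became 0 at an adjusted p under 0.01, with a log2 fold change of at least 1, with 1 time point alone or without control replicate 2 of Day 3 and Day 7, and 2 with the block within each time point. The 1 at 4 weeks became 0 with a log2 fold change of at least 1. Between Day 3 and 4 weeks, the 3 factors called within control became 4 by DESeq2 or with no filter, 2 without control replicate 2 of Day 3 and Day 7, and 1 at an adjusted p under 0.01 or a log2 fold change of at least 1. The 3 within *Sox17*-*Erg* became 0 in both settings, and 1 without control replicate 2 of Day 3 and Day 7. The 0 factors with a different effect became 1 by DESeq2 and 3 with no filter.

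Without 1 library, factors called higher at Day 3 numbered 0 to 2, those at Day 7 from 1 to 2 and those at 4 weeks from 2 to 4, and factors lower 0 to 1 at Day 3 and 0 later. Other ETS genes called at Day 3 numbered 0, those at Day 7 from 0 to 1 and those at 4 weeks from 0 to 2. Factors called over time numbered 1 to 4 within control and 0 to 3 within *Sox17*-*Erg*, and 0 to 1 differed in effect. The replicate block changed no call of a factor against control beyond those of *Ets2*, *Etv1*, *Etv4* and *Etv5* given above. The causes of these changes were not tested. With 2 libraries a group and as few as 2 counts of *Erg* in a control library, the size of its fold change is poorly determined.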
